A study of Homo sapiens with 12 samples.

Results

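The interleukin-1 family is described here through 10 genes: the ligands IL1A, IL1B, IL18, IL33 and IL36G, the receptor antagonist IL1RN, and the receptors IL1R1, IL1R2, IL1RL1 and IL1RAP. They were taken from the count table by gene symbol, and all 10 were found among its 57783 genes. RNA was sequenced in bulk from MDA-MB-468, an established line of triple-negative breast cancer. The cells had been given 0.5 µM EPZ5676 (pinometostat), which inhibits DOT1L, the enzyme that methylates lysine 79 of histone H3, or DMSO as solvent for 10 days. Flow cytometry then separated them by ALDH1, an enzyme activity by which stem-like breast cancer cells are commonly enriched. The 4 groups were EPZ5676 ALDH1+, EPZ5676 ALDH1-, DMSO ALDH1+ and DMSO ALDH1-, with 3 libraries each that the labels call biological replicates. All 12 libraries came from this 1 cell line, and no unsorted cells were analysed here. Whether the replicates were separate cultures is not said, so p-values measure the spread between these libraries.

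IL-1α and IL-1β, the products of IL1A and IL1B, bind the receptor IL1R1, which then recruits the accessory chain IL1RAP and signals through MYD88 and IRAK kinases to NF-κB. The pathway is restrained by the receptor antagonist IL1RN, which occupies IL1R1 without signalling, and by IL1R2, a decoy receptor that binds IL-1 but lacks the signalling domain. IL1RAP is also the second chain for IL-33 bound to IL1RL1 (ST2) and for IL-36 bound to IL1RL2, whereas IL-18, which caspase-1 cleaves to its active form, has its own receptor pair, IL18R1 and IL18RAP. Epithelial cells are known both to make several of these ligands and to respond to them.

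Total counts lay between 24348594 and 29368821 in 10 libraries. EPZ5676 ALDH1+ replicate 2 held 80195050 and DMSO ALDH1+ replicate 3 held 58004508. After removal of genes with too few counts, 16327 genes were tested, among them 6 of the 10 members: IL1RN, IL18, IL1R1, IL1R2, IL1RL1 and IL1RAP. Levels are given in CPM, the count per 1000000 in a library after scaling. A level of 3 counts, taken as the floor, corresponded to 0.0376 to 0.122 CPM depending on the library, and covers counting error only. A gene was called where edgeR's quasi-likelihood test gave a p below 0.05 after Benjamini-Hochberg adjustment across the 16327 genes. The 8 markers of the epithelial line summed to between 17665 and 22020 CPM in every library. With EPZ5676, 2 of them were called higher and 4 lower in ALDH1+ cells, and 1 higher and 1 lower in ALDH1- cells. The cadherin gene CDH1 was lower in both, with log2 fold changes of -0.55 and -0.67. The progesterone receptor gene PGR had at most 1 count per library. ERBB2 (HER2) averaged 37.6 CPM in EPZ5676 ALDH1+, 37.6 CPM in EPZ5676 ALDH1-, 58.1 CPM in DMSO ALDH1+ and 65.04 CPM in DMSO ALDH1-. ESR1, the estrogen receptor gene, averaged between 7.39 and 10.3 CPM in the 4 groups.

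IL1RN, IL1R2 and IL1RL1 were the 3 members called higher with EPZ5676 in both sorted populations, and all 3 lie on chromosome 2. The 250 bases before their annotated starts are shown for the 5 windows that held a match to 1 of 3 motifs, as a view of the regions in front of the genes that moved together. They come from RefSeq, build GRCh38.p14, and all read on the plus strand. Capitals mark matches, on either strand, to 3 motifs. The AP-1 motif was searched as TGANTCA. The motif of GATA factors was searched as AGATAA. The motif of the TATA box was searched as TATAAA.
IL1RN chr2:113117721-113117970: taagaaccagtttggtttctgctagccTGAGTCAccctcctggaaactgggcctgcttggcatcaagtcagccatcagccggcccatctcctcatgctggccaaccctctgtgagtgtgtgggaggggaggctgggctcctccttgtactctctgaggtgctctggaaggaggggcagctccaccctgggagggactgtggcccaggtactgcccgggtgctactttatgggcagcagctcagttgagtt
IL1RN chr2:113127348-113127597: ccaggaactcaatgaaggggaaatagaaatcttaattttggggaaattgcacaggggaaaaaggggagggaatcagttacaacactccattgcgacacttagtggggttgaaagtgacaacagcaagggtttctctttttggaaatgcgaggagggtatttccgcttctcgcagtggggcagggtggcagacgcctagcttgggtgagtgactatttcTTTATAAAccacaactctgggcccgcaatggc
IL1R2 chr2:101991710-101991959: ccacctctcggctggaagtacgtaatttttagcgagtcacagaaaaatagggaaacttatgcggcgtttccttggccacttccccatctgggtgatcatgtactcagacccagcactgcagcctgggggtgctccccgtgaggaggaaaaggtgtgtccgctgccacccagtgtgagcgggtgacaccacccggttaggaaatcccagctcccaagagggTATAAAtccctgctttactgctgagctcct
IL1RL1 chr2:102311313-102311562: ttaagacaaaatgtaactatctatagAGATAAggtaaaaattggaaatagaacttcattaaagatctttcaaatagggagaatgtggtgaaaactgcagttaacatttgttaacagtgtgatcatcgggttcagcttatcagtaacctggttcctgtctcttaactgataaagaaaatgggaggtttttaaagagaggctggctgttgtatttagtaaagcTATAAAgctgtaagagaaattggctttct
IL1RL1 chr2:102337007-102337256: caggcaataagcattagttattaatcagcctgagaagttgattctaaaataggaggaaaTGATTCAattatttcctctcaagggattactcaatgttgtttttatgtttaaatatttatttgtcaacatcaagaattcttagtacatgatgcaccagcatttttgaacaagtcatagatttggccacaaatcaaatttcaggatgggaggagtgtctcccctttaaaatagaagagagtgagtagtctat
The AP-1 match began 223 bases before the first IL1RN start and 191 bases before the second IL1RL1 start. TATA matches began 30 bases before the first IL1R2 start and 29 bases before the first IL1RL1 start, whose window also held the GATA match, 224 bases out. The second IL1R2 window, not shown, held no match. IL1RN has 3 windows in the table, of which the middle one, not shown, held no match. In the other IL1RN window shown the capitals cover a pair of overlapping TATA matches, 1 on each strand, that began 32 and 30 bases before the start. Over all 35116 windows of the same length in the table, 6.57% held the AP-1 motif, 9.17% the GATA motif and 10.7% the TATA box. Of the 18 windows of the 9 members with a start in the table, 4 held the AP-1 motif, 4 the GATA motif and 5 the TATA box. The AP-1 motif was also found in both windows of IL1A, a gene with almost no counts. These matches are a description of the letters, and gene counts do not show which start was used.

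The ligands IL1A, IL1B, IL33 and IL36G were nearly silent in every group. IL1A (ENSG00000115008.5) had 4 counts in EPZ5676 ALDH1+, 1 in EPZ5676 ALDH1-, 0 in DMSO ALDH1+ and 0 in DMSO ALDH1- over 3 libraries each. IL1B (ENSG00000125538.7) had 5 counts in EPZ5676 ALDH1+, 5 in EPZ5676 ALDH1-, 0 in DMSO ALDH1+ and 2 in DMSO ALDH1-. The 4 counts of IL1A in EPZ5676 ALDH1+ all fell in the library of 80195050 counts, and they reached 0.0501 CPM. IL33 (ENSG00000137033.7), the ligand of IL1RL1, had a single count in all 12 libraries, in DMSO ALDH1-. IL36G (ENSG00000136688.6), an epithelial ligand of IL1RL2, had 20 counts in EPZ5676 ALDH1+, 6 in EPZ5676 ALDH1-, 5 in DMSO ALDH1+ and 4 in DMSO ALDH1-. Of its 20 counts in EPZ5676 ALDH1+, 17 fell in replicate 2, at 0.213 CPM, the single library in which IL36G exceeded the floor. These 4 genes did not pass the filter and were not tested, and at this depth no difference between groups could be detected for them.

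IL18 was the ligand with a clear transcript level and the most abundant of the 6 tested members per length in each group. Per kilobase of exon, on the CPM scale, its mean level was 25.5 in EPZ5676 ALDH1+, 30.3 in EPZ5676 ALDH1-, 22.5 in DMSO ALDH1+ and 25.3 in DMSO ALDH1-. In EPZ5676 ALDH1+ cells IL1RN at 7.003 and IL1R2 at 6.95 CPM per kilobase came next, with overlapping libraries. The means of IL1RL1 at 2.71, IL1RAP at 2.58 and IL1R1 at 1.45 followed, and the libraries of IL1RL1 overlapped those of both others. In EPZ5676 ALDH1- cells the means were 6.80 CPM per kilobase for IL1R2, 4.19 for IL1RN, 4.17 for IL1RL1, 2.74 for IL1RAP and 1.59 for IL1R1. The libraries of IL1RL1, from 1.44 to 6.99, overlapped those of the other 4, whose libraries did not overlap each other. IL1RL1 held another place in the DMSO groups. It was the lowest of the 6, at 0.442 CPM per kilobase in DMSO ALDH1+ and 0.878 in DMSO ALDH1-, where its libraries overlapped those of IL1R1 at 1.30. The other DMSO ALDH1+ levels were 3.24 for IL1R2, 3.01 for IL1RAP, 2.33 for IL1RN and 1.17 for IL1R1, and those of DMSO ALDH1- were 3.15 for IL1R2, 2.89 for IL1RAP and 2.19 for IL1RN. IL1R2 and IL1RAP overlapped in both DMSO groups. Exon lengths came from GENCODE 29, which is not the annotation the counts were made with.

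**Figure D1:**
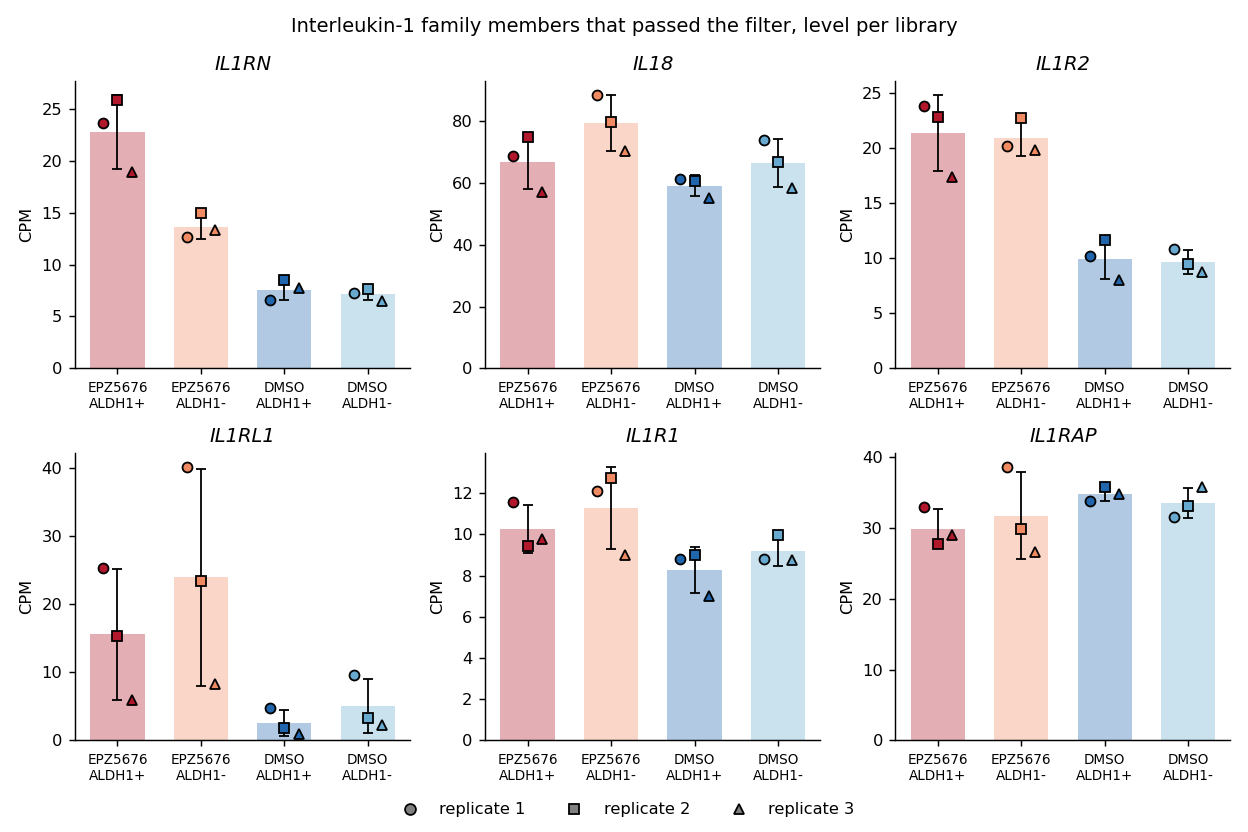
CPM of the 6 members that passed the filter, in EPZ5676 ALDH1+, EPZ5676 ALDH1-, DMSO ALDH1+ and DMSO ALDH1-. Bars show means, whiskers SD and symbols the 3 libraries of each group by replicate number. For IL1RN and IL1R2 the EPZ5676 libraries stand above the DMSO libraries of the same population, and for IL1RL1 the spread between libraries of a group is wide.

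Treatment in ALDH1+ cells was the first comparison. Transcripts of the antagonist IL1RN, the decoy IL1R2 and the IL-33 receptor IL1RL1 rose with EPZ5676, each by more than 1.0 on the log2 scale. The signalling receptor IL1R1, the accessory chain IL1RAP and the ligand IL18 did not pass the test without the replicate block described below. With it, IL1R1 and IL18 were also called higher. Without the block, 3 of the 6 tested members were called higher and 0 lower, and 31.5% of all genes tested were called (17.8% higher and 13.7% lower). The median log2 fold change was 0.72 over the 6 members and -0.01 over all genes tested. In 5 of the 6 members the EPZ5676 and DMSO libraries did not overlap, as was true of 41.4% of all genes. In bulk RNA, fewer cells with a transcript and less RNA per cell cannot be told apart, here and in what follows.

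IL1RN (ENSG00000136689.14) measured 23.6, 25.9 and 18.9 CPM in EPZ5676 ALDH1+ replicates 1, 2 and 3, against 6.55, 8.48 and 7.75 CPM in DMSO ALDH1+. The lowest EPZ5676 library was well above the highest DMSO library. The means were 22.8 ± 3.56 CPM with EPZ5676 and 7.60 ± 0.977 CPM with DMSO (SD, n = 3 each), and the log2 fold change reached 1.59 (SE 0.13, adjusted p = 5.90e-07, edgeR quasi-likelihood test). IL1R2 (ENSG00000115590.9) measured 23.9, 22.8 and 17.4 CPM in EPZ5676 ALDH1+ and 10.2, 11.6 and 8.002 CPM in DMSO ALDH1+. Its groups did not overlap either. The means were 21.4 ± 3.48 CPM with EPZ5676 and 9.95 ± 1.83 CPM with DMSO (SD, n = 3 each), and the log2 fold change was 1.12 (SE 0.15, adjusted p = 4.10e-05).

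IL1RL1 (ENSG00000115602.12) had the largest change of the members and the widest spread. It measured 25.3, 15.4 and 5.999 CPM in EPZ5676 ALDH1+ replicates 1, 2 and 3, against 4.73, 1.87 and 1.01 CPM in DMSO ALDH1+. In both groups replicate 1 was highest and replicate 3 lowest, and the lowest EPZ5676 library stood just above the highest DMSO library. The log2 fold change was 2.72 (SE 0.69, adjusted p = 0.00791, edgeR quasi-likelihood test). Replicate numbers paired the libraries across groups, and with the number as a block in the fit the log2 fold change was 2.65 with a much smaller SE of 0.16 (adjusted p = 2.31e-09). Within replicate numbers the log2 ratio of EPZ5676 to DMSO was 2.42, 3.04 and 2.57. Without DMSO ALDH1+ replicate 3 and without the block, the log2 fold change was 2.22 and the call was lost (adjusted p = 0.0511). Without DMSO ALDH1+ replicate 1 it was 3.54.

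The other 3 tested members moved by small amounts in ALDH1+ cells. IL1R1 (ENSG00000115594.7) measured 11.6, 9.43 and 9.77 CPM with EPZ5676 and 8.80, 9.002 and 6.99 CPM with DMSO. Its groups did not overlap, but the gap between them was small. The log2 fold change of 0.32 (95% interval 0.04 to 0.60) was not called (adjusted p = 0.106, edgeR quasi-likelihood test), and with the replicate block it was called at 0.31 (adjusted p = 0.0342). IL18 (ENSG00000150782.7) measured 68.7, 74.9 and 57.2 CPM with EPZ5676 and 61.3, 60.7 and 55.2 CPM with DMSO, with overlapping groups. Its log2 fold change of 0.18 (95% interval -0.03 to 0.40) was not called (adjusted p = 0.225) and was called with the block (adjusted p = 0.0417). IL1RAP (ENSG00000196083.5) measured 32.9, 27.7 and 29.02 CPM with EPZ5676 and 33.8, 35.7 and 34.7 CPM with DMSO. The EPZ5676 libraries of IL1RAP were all below the DMSO libraries, yet its log2 fold change of -0.22 was not called in either fit (adjusted p = 0.154, and 0.0791 with the block). With the block, 5 of the 6 members were called higher, beside 41.8% of all genes called in either direction.

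The same treatment in ALDH1- cells gave calls for the same 3 members. Transcripts of IL1RN, IL1R2 and IL1RL1 were higher with EPZ5676, and IL1R1, IL18 and IL1RAP did not pass the test without the replicate block. With it, IL18 was also called higher. Without the block, 3 of the 6 members were called higher and 0 lower, and 22.6% of all genes tested were called (13.6% higher and 9.04% lower). The median log2 fold change was 0.62 over the members and -0.02 over all genes. The libraries did not overlap between EPZ5676 and DMSO for 2 of the 6 members, IL1RN and IL1R2, and for 39.1% of all genes. These libraries are other libraries than those of the ALDH1+ comparison, but each replicate number links both sorted populations.

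IL1RN measured 12.7, 14.9 and 13.3 CPM in EPZ5676 ALDH1- replicates 1, 2 and 3, against 7.26, 7.62 and 6.53 CPM in DMSO ALDH1-. All EPZ5676 libraries were above all DMSO libraries, by less than in ALDH1+ cells. The means were 13.7 ± 1.17 CPM with EPZ5676 and 7.13 ± 0.556 CPM with DMSO (SD, n = 3 each), and the log2 fold change reached 0.94 (SE 0.13, adjusted p = 1.44e-04, edgeR quasi-likelihood test). IL1R2 measured 20.1, 22.8 and 19.8 CPM with EPZ5676 and 10.8, 9.49 and 8.72 CPM with DMSO. Its groups did not overlap. The means of 20.9 ± 1.63 CPM with EPZ5676 and 9.68 ± 1.08 CPM with DMSO gave 1.11 as log2 fold change (SE 0.15, adjusted p = 7.93e-05), close to its value in ALDH1+ cells.

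IL1RL1 measured 40.2, 23.4 and 8.28 CPM in EPZ5676 ALDH1- replicates 1, 2 and 3, against 9.603, 3.23 and 2.30 CPM in DMSO ALDH1-. The groups overlapped, because EPZ5676 replicate 3 lay below DMSO replicate 1, although EPZ5676 was higher within each replicate number. The log2 fold change was 2.24 (SE 0.64, adjusted p = 0.0207, edgeR quasi-likelihood test), and 2.27 with the block (SE 0.15, adjusted p = 1.05e-08). Within replicate numbers the log2 ratio of EPZ5676 to DMSO was 2.06, 2.85 and 1.85. Without the block the call depended on single libraries. The log2 fold change was 2.00 without DMSO ALDH1- replicate 2 (adjusted p = 0.0862), 1.91 without DMSO ALDH1- replicate 3 (adjusted p = 0.0869) and 1.66 without EPZ5676 ALDH1- replicate 1 (adjusted p = 0.110). It was 3.10 without DMSO ALDH1- replicate 1 and remained called.

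IL18 measured 88.4, 79.8 and 70.3 CPM with EPZ5676 and 74.0, 66.7 and 58.5 CPM with DMSO in ALDH1- cells. The groups overlapped, while within each replicate number EPZ5676 was higher by 0.26, 0.26 and 0.27 on the log2 scale. The log2 fold change of 0.26 was not called (SE 0.11, adjusted p = 0.111, edgeR quasi-likelihood test), and was called with the block (SE 0.07, adjusted p = 0.00629). IL1R1 measured 12.1, 12.7 and 8.998 CPM with EPZ5676 and 8.80, 10.0 and 8.75 CPM with DMSO. Its overlapping groups gave a log2 fold change of 0.30 that was called in neither fit (adjusted p = 0.167, and 0.0602 with the block). Its normal 95% interval of 0.01 to 0.58 is too narrow, since its unadjusted p was 0.0589 in the edgeR quasi-likelihood test. IL1RAP measured 38.6, 29.9 and 26.6 CPM with EPZ5676 and 31.5, 33.1 and 35.7 CPM with DMSO. Its groups overlapped, and its log2 fold change of -0.08 was not called (95% interval -0.30 to 0.15, adjusted p = 0.688). Without EPZ5676 ALDH1- replicate 3, IL18 at 0.35 (adjusted p = 0.0431) and IL1R1 at 0.44 (adjusted p = 0.0358) were both called in the fit of group means. With the block, 4 of the 6 members were called higher, beside 32.2% of all genes called in either direction.

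**Figure D2:**
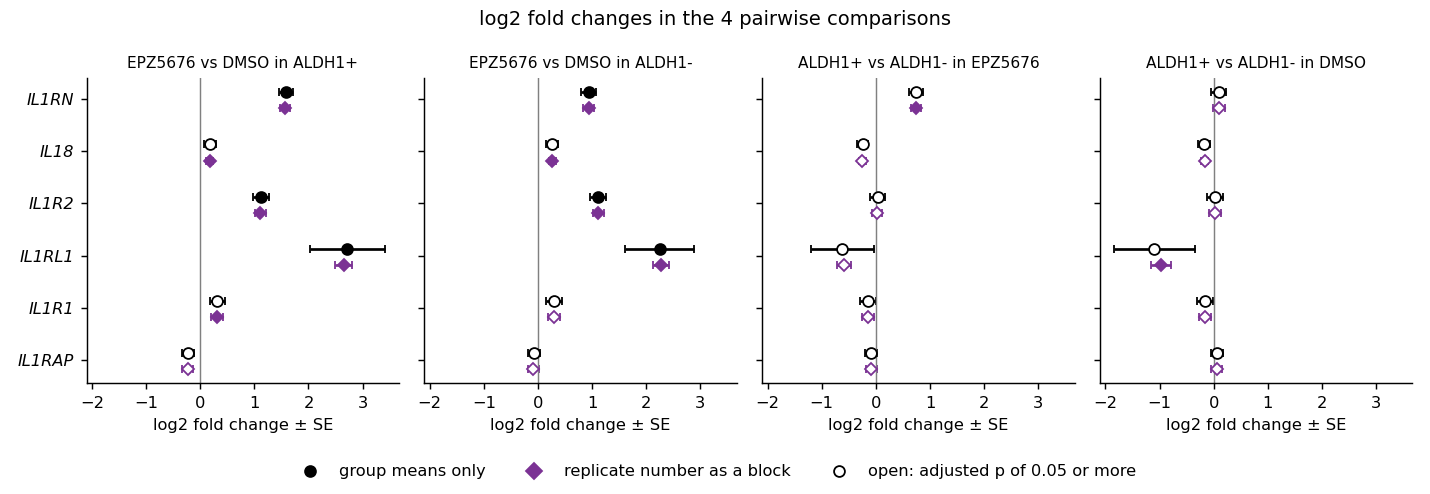
log2 fold change ± SE of the 6 tested members in the 4 pairwise comparisons, from the fit of group means (circles) and from the fit with replicate number as a block (diamonds). Filled symbols mark an adjusted p below 0.05. IL1RN, IL1R2 and IL1RL1 are filled in both treatment comparisons, and the SE of IL1RL1 shrinks from 0.69 to 0.16 in ALDH1+ cells with the block.

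The receptors on chromosome 2 that bind IL-1 itself could be set against each other per length within each library. Per kilobase, the decoy IL1R2 exceeded the signalling receptor IL1R1 in all 12 libraries, and the ratio was larger with EPZ5676. The excess depends on the GENCODE 29 exon lengths, 3.073 kb for IL1R2 and 7.083 kb for IL1R1. In CPM alone, IL1R2 was lower than IL1R1 in DMSO ALDH1- replicates 2 and 3 and higher in the other libraries. The ratio of IL1R2 to IL1R1 in CPM per kilobase was 4.74, 5.58 and 4.10 in EPZ5676 ALDH1+ and 2.68, 2.98 and 2.64 in DMSO ALDH1+. It was 3.83, 4.12 and 5.07 in EPZ5676 ALDH1- and 2.84, 2.19 and 2.29 in DMSO ALDH1-. The groups did not overlap in either population. The log2 ratio was higher with EPZ5676 by 0.79 in ALDH1+ and by 0.83 in ALDH1- cells, with p = 0.1 in a two-sided exact permutation test in each (n = 3 each), the smallest p that 3 libraries against 3 allow. Without single libraries the difference ranged between 0.68 and 0.90 in ALDH1+ and between 0.71 and 0.94 in ALDH1- cells.

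The sorted populations were compared next within each treatment. Without the replicate block no member passed the test between ALDH1+ and ALDH1- cells, whether the cells had been given EPZ5676 or DMSO. With it, IL1RN was called in EPZ5676-treated and IL1RL1 in DMSO-treated cells. In the fit without it, 0 of the 6 tested members were called in EPZ5676-treated cells, where 0.0184% of all genes (3 genes) were called. Without adjustment 2 members and 1032 genes had p below 0.05 there. The DESeq2 Wald test called 1 member and 31 genes, and limma-voom 0 members and 3 genes. In DMSO-treated cells 0 of the 6 members and 0% of all genes were called by edgeR, and the libraries of the populations overlapped for all 6 members and did not overlap for 23.1% of all genes. Without adjustment 0 members and 2904 genes had p below 0.05. The DESeq2 Wald test called 0 members and 298 genes there, and limma-voom 0 members and 0 genes. With the replicate block, 0.459% of all genes were called in EPZ5676-treated and 8.48% in DMSO-treated cells, and 1 member in each.

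IL1RN was the member called with the block in EPZ5676-treated cells. Its libraries of ALDH1+ cells, between 18.9 and 25.9 CPM, all lay above those of ALDH1- cells, between 12.7 and 14.9 CPM. It was the only 1 of the 6 members whose populations did not overlap in EPZ5676-treated cells, as 9.57% of all genes did not. The log2 fold change of ALDH1+ over ALDH1- was 0.74 (SE 0.13, adjusted p = 0.106, edgeR quasi-likelihood test) and 0.74 with the block (adjusted p = 0.00162). Within replicate numbers 1, 2 and 3 the log2 ratio was 0.90, 0.79 and 0.51. Without EPZ5676 ALDH1+ replicate 3 the log2 fold change was 0.86 and was called without the block (adjusted p = 0.0101), and the DESeq2 Wald test called it in all libraries (0.74, adjusted p = 1.50e-04). In DMSO-treated cells the IL1RN levels of 6.55, 8.48 and 7.75 CPM in ALDH1+ and 7.26, 7.62 and 6.53 CPM in ALDH1- overlapped, with a log2 fold change of 0.09 (95% interval -0.18 to 0.36, adjusted p = 0.774).

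IL1RL1 was the member called with the block in DMSO-treated cells, where it was lower in ALDH1+ cells within every replicate number. The log2 ratio of ALDH1+ to ALDH1- was -1.02, -0.79 and -1.19 in DMSO-treated cells and -0.67, -0.60 and -0.47 in EPZ5676-treated cells. In DMSO-treated cells the fit of group means gave -1.09 (SE 0.74, adjusted p = 0.452, edgeR quasi-likelihood test) and the block gave -0.97 (SE 0.18, adjusted p = 0.0121). In EPZ5676-treated cells the values were -0.62 (SE 0.58, adjusted p = 0.900) and, with the block, -0.58 (adjusted p = 0.0552). The log2 fold changes of ALDH1+ over ALDH1- in EPZ5676-treated cells were -0.25 for IL18, -0.14 for IL1R1, 0.03 for IL1R2 and -0.09 for IL1RAP. In DMSO-treated cells they were -0.17 for IL18, -0.16 for IL1R1, 0.02 for IL1R2 and 0.06 for IL1RAP. None of these was called in either fit.

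Whether the treatment effect differed between the populations was tested as an interaction, the effect in ALDH1+ minus that in ALDH1- cells. For IL1RN, whose level with EPZ5676 was 22.8 CPM in ALDH1+ and 13.7 CPM in ALDH1- cells, the effect was larger in ALDH1+ cells by 0.65 on the log2 scale (SE 0.19). Its unadjusted p was 0.00325, and it did not hold after adjustment (adjusted p = 0.979, and 0.297 with the block, edgeR quasi-likelihood test). For IL1R2 the difference was 0.01 (95% interval -0.40 to 0.42), and for IL1RL1 it was 0.47 with a wide interval of -1.38 to 2.32. None of the 6 members and 0% of all genes were called. Without adjustment 1 member and 597 genes had p below 0.05, while DESeq2, limma-voom and the block called 0 genes each.

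The spread of IL1RL1 between replicates followed the replicate number in all 4 groups. Replicate 1 exceeded replicate 3 by 4.21-fold in EPZ5676 ALDH1+, 4.85-fold in EPZ5676 ALDH1-, 4.69-fold in DMSO ALDH1+ and 4.17-fold in DMSO ALDH1-. The SD of IL1RL1 within groups was 1.09 on the log2 scale, against a median of 0.122 over 12354 genes. Once the replicate number was taken out it was 0.257, against a median of 0.0969. No other tested member had a spread of this size. What the replicate numbers stand for is not given in the labels beyond their being biological replicates.

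**Figure D3:**
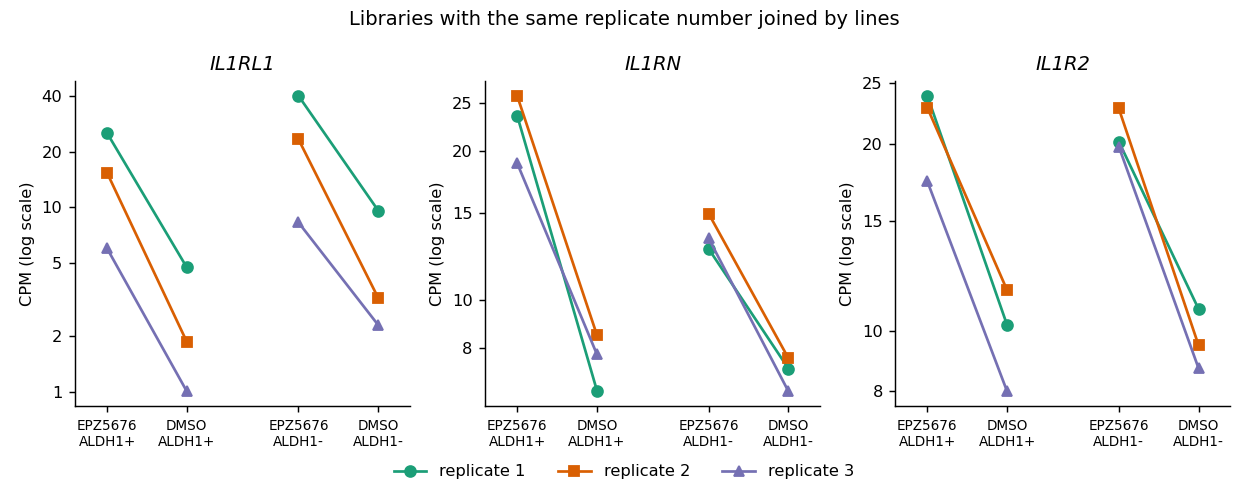
CPM on a log scale of IL1RL1, IL1RN and IL1R2, with libraries of the same replicate number joined from EPZ5676 to DMSO within ALDH1+ and within ALDH1- cells. All 18 lines fall towards DMSO, and IL1RL1 is highest in replicate 1 and lowest in replicate 3 in all 4 groups.

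IL1A, IL1B, IL36G, IL1RN, IL1R1, IL1R2 and IL1RL1 lie on chromosome 2, in a receptor cluster and a ligand cluster, and the neighbours in each were read in their chromosomal order. In the receptor cluster the order in GENCODE 29 was IL1R2, IL1R1, IL1RL2, IL1RL1, IL18R1 and IL18RAP. IL1RL2, the IL-36 receptor, averaged 1.26 CPM in EPZ5676 ALDH1+ and 0.329 CPM in DMSO ALDH1+, which made its log2 fold change 2.12 (SE 0.38, adjusted p = 6.30e-04, edgeR quasi-likelihood test). In ALDH1- cells it averaged 1.498 CPM with EPZ5676 and 0.686 CPM with DMSO, a log2 fold change of 1.12 (adjusted p = 0.0301). IL18R1, the ligand-binding chain for IL-18, averaged 1.47 CPM in EPZ5676 ALDH1+ and 0.285 CPM in DMSO ALDH1+ (log2 fold change 2.41, SE 0.39, adjusted p = 2.71e-04). In ALDH1- cells it averaged 1.51 CPM with EPZ5676 and 0.321 CPM with DMSO (log2 fold change 2.19, adjusted p = 0.00116). IL18R1 had only 29 counts in DMSO ALDH1+ and 27 in DMSO ALDH1-, over 3 libraries each. It passed the filter through EPZ5676 libraries, so its calls add no support for a rise. Its partner chain IL18RAP had 6 counts in all 12 libraries and was not tested. Of the receptors tested in this cluster, IL1R1 alone was not called in either treatment comparison without the block. IL18R1 and IL1RL1 overlap on the same strand in GENCODE 29, so reads in the shared part could be counted for either, and both counts are uncertain to that extent.

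In the ligand cluster, IL1A, IL1B, IL36G, IL36A, IL36B and IL1F10 had too few counts to test, and IL37, IL36RN and IL1RN were tested. IL37, an anti-inflammatory family member, averaged 0.755 CPM in EPZ5676 ALDH1+ and 0.132 CPM in DMSO ALDH1+ (log2 fold change 2.49, SE 0.39, adjusted p = 2.11e-04, edgeR quasi-likelihood test). In ALDH1- cells it averaged 0.385 CPM with EPZ5676 and 0.0832 CPM with DMSO (2.14, adjusted p = 0.0118). IL36RN, the antagonist of the IL-36 receptor, averaged 0.365 CPM in EPZ5676 ALDH1+ and 0.0670 CPM in DMSO ALDH1+ (2.42, SE 0.52, adjusted p = 0.00265). In ALDH1- cells it averaged 0.391 CPM with EPZ5676 and 0.119 CPM with DMSO (1.68, adjusted p = 0.0379). The DMSO levels of both genes were near the floor of 3 counts, so their folds are imprecise. Both passed the filter through EPZ5676 libraries, so they could only be called higher. The genes that flank the clusters were read after values were known. MAP4K4, beside IL1R2, had a log2 fold change of 0.66 in ALDH1+ (adjusted p = 1.70e-04) and 0.53 in ALDH1- cells (adjusted p = 0.00139). PSD4, beside IL1RN, had 0.49 (adjusted p = 9.00e-05) and 0.26 (adjusted p = 0.0140). CKAP2L, beside IL1A, was not called, at -0.22 in ALDH1+ and 0.07 in ALDH1- cells, and SLC9A4, beside IL18RAP, had 12 counts in all.

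**Figure D4:**
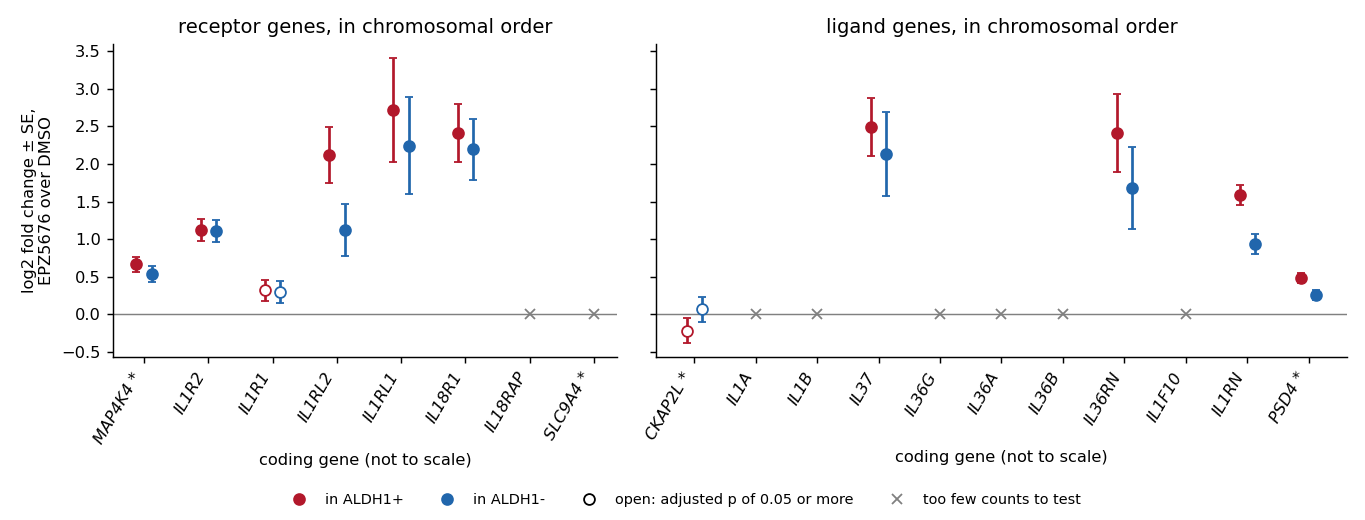
log2 fold change ± SE of EPZ5676 over DMSO in ALDH1+ and ALDH1- cells for the coding genes of both chromosome 2 clusters, in chromosomal order and not to scale. Flanking genes carry an asterisk, open circles mark an adjusted p of 0.05 or more, and crosses mark genes with too few counts, drawn at 0 with no value. IL1R1 is the one receptor in its cluster with open symbols.

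Other genes of the pathway were read from lists. Of 6 further ligands and soluble inhibitors, 3 were tested, and IL37 and IL36RN were called higher in both treatment comparisons. The third, IL18BP, a secreted binder of IL-18 named after its values were seen, was not called, at 0.03 in ALDH1+ and -0.41 in ALDH1- cells on the log2 scale. With the replicate block it was called lower in ALDH1- cells (adjusted p = 0.0234). Of 6 further receptors, 4 were tested. IL1RL2, IL18R1 and IL1RAPL2, an accessory protein-like receptor, were called higher in both populations, with IL1RAPL2 at 4.40 ± 0.12 CPM in EPZ5676 ALDH1- and 2.96 ± 0.55 CPM in DMSO ALDH1- (log2 fold change 0.57, adjusted p = 0.0389, edgeR quasi-likelihood test). The median log2 fold change of the 3 ligands and inhibitors was that of IL36RN, 2.42 in ALDH1+ and 1.68 in ALDH1- cells. IL37 and IL36RN passed the filter through EPZ5676 libraries and could only be called higher. Their calls and this median therefore do not show a rise of the list. The median of the 4 receptors was 1.42 and 0.84. IL18R1 also passed the filter through EPZ5676 libraries, so it adds no support to the count and median of the receptors. Over all genes the median was -0.01 and -0.02, and 17.8% were called higher in ALDH1+ and 13.6% in ALDH1- cells. In ALDH1- cells the counts called in both lists rested on single libraries. The 3 receptors called became 1 without DMSO ALDH1- replicate 2 or 3 or EPZ5676 ALDH1- replicate 1 or 2. The 2 calls of IL37 and IL36RN became 1 without any DMSO ALDH1- replicate or EPZ5676 ALDH1- replicate 2 or 3. They became 0 under a filter of 1 CPM, which removes both genes.

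Most genes that carry the signal from the receptors were not called. Of 17 tested, 2 were called higher and 2 lower in ALDH1+ cells, where 31.5% of all genes were called. In ALDH1- cells 3 were higher and 2 lower, beside 22.6% of all genes, so that both counts were close to the share over all genes. The median log2 fold change of the list was -0.08 in ALDH1+ and -0.06 in ALDH1- cells. The block called 3 higher and 3 lower in ALDH1+, and 3 higher and 4 lower in ALDH1- cells. TAB3, an adaptor of the kinase TAK1, averaged 168 ± 17 CPM in EPZ5676 ALDH1+ and 109 ± 15 CPM in DMSO ALDH1+ (log2 fold change 0.62, SE 0.11, adjusted p = 4.90e-04, edgeR quasi-likelihood test). MAP3K7, which encodes TAK1, was lower in ALDH1+ cells with a log2 fold change of -0.21 (adjusted p = 0.0145), and the E3 ligase gene PELI2 with -0.71 (adjusted p = 0.00146). The adaptor gene MYD88 rose by 0.28 in ALDH1+ (adjusted p = 0.0273) and by 0.31 in ALDH1- cells (adjusted p = 0.0219). In ALDH1- cells IRAK1, a kinase recruited by MYD88, had -0.19 (adjusted p = 0.0189) and IRAK3, an inhibitory relative, 0.63 (adjusted p = 0.0330). The 4 calls in ALDH1+ cells became 2 without EPZ5676 ALDH1+ replicate 1 or 2. The 5 in ALDH1- cells became 1 without DMSO ALDH1- replicate 3 or EPZ5676 ALDH1- replicate 1, and 2 without DMSO ALDH1- replicate 1 or 2 or EPZ5676 ALDH1- replicate 2.

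The called genes of the inflammasome and of cytokine processing were all higher with EPZ5676. Of 12 tested, 6 were higher and 0 lower in ALDH1+ cells, beside 17.8% of all genes higher and 13.7% lower. In ALDH1- cells 5 were higher and 0 lower, beside 13.6% of all genes higher and 9.04% lower. The block called 7 higher in ALDH1+ and 5 higher in ALDH1- cells, and 0 lower in both. NLRP3, an inflammasome sensor, averaged 0.945 ± 0.33 CPM in EPZ5676 ALDH1+ and 0.0928 ± 0.048 CPM in DMSO ALDH1+, a level around the floor, so that its log2 fold change of 3.39 (SE 0.44, adjusted p = 4.47e-05, edgeR quasi-likelihood test) is imprecise. It passed the filter through EPZ5676 libraries, as did GSDMA, a gasdermin gene at 0.0626 CPM in DMSO ALDH1+. Both could only be called higher, so they add no support to the counts above. GSDME, a pore-forming gasdermin, averaged 5.10 ± 0.20 CPM in EPZ5676 ALDH1+ and 2.46 ± 0.33 CPM in DMSO ALDH1+ (1.08, SE 0.14, adjusted p = 4.62e-05). Its relative GSDMC averaged 12.96 ± 3.0 CPM in EPZ5676 ALDH1- and 6.94 ± 0.88 CPM in DMSO ALDH1- (0.90, adjusted p = 0.00529). The 5 calls in ALDH1- cells became 3 without any DMSO ALDH1- replicate or EPZ5676 ALDH1- replicate 1 or 2.

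Many genes known to be induced by IL-1 in other cells were called higher with EPZ5676. Of 18 tested, 10 were higher and 0 lower in ALDH1+ cells, beside 17.8% of all genes higher and 13.7% lower. In ALDH1- cells 10 were higher and 0 lower, beside 13.6% of all genes higher and 9.04% lower. The median log2 fold change was 0.99 in ALDH1+ and 1.16 in ALDH1- cells. The block called 12 higher and 1 lower in ALDH1+, and 13 higher and 0 lower in ALDH1- cells. The 1 that was lower, named after its values were seen, was NFKBIA, which encodes an inhibitor of NF-κB (adjusted p = 0.0359 with the block). Without the block its log2 fold change was -0.25 (adjusted p = 0.198). LCN2, the iron-siderophore binder lipocalin 2, averaged 77.9 ± 12 CPM in EPZ5676 ALDH1+ and 40.2 ± 1.7 CPM in DMSO ALDH1+ (log2 fold change 0.96, SE 0.12, adjusted p = 3.08e-05, edgeR quasi-likelihood test). BIRC3, an inhibitor of apoptosis, averaged 99.9 ± 26 CPM in EPZ5676 ALDH1- and 41.1 ± 3.1 CPM in DMSO ALDH1- (1.28, SE 0.15, adjusted p = 2.41e-05). The cytokine gene IL6 averaged 4.38 ± 2.0 CPM in EPZ5676 ALDH1- and 0.626 ± 0.17 CPM in DMSO ALDH1- (2.79, SE 0.48, adjusted p = 5.97e-04). CSF2, which encodes GM-CSF, averaged 0.939 ± 0.41 CPM in EPZ5676 ALDH1+ and 0.0759 ± 0.042 CPM in DMSO ALDH1+, and the collagenase MMP1 averaged 0.955 ± 0.54 CPM and 0.0756 ± 0.042 CPM in the same groups. Both DMSO levels lay around the floor. CSF2 and MMP1 passed the filter through EPZ5676 libraries and could only be called higher, so they add no support to the counts above. In neither comparison of ALDH1+ with ALDH1- cells was any gene of these 5 lists called without the block. With it, and named after their values were seen, ICAM1, an adhesion molecule, and BIRC3 were called lower in ALDH1+ cells given EPZ5676 (adjusted p = 0.00474 and 0.0274). Their log2 fold changes in the fit without the block were -0.84 and -0.57. In cells given DMSO, IL18BP, IL1RL2 and ICAM1 were called lower in ALDH1+ cells with the block (adjusted p = 0.0356, 0.0348 and 0.0249). Without the block their log2 fold changes were -0.45, -1.25 and -0.52.

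**Figure D5:**
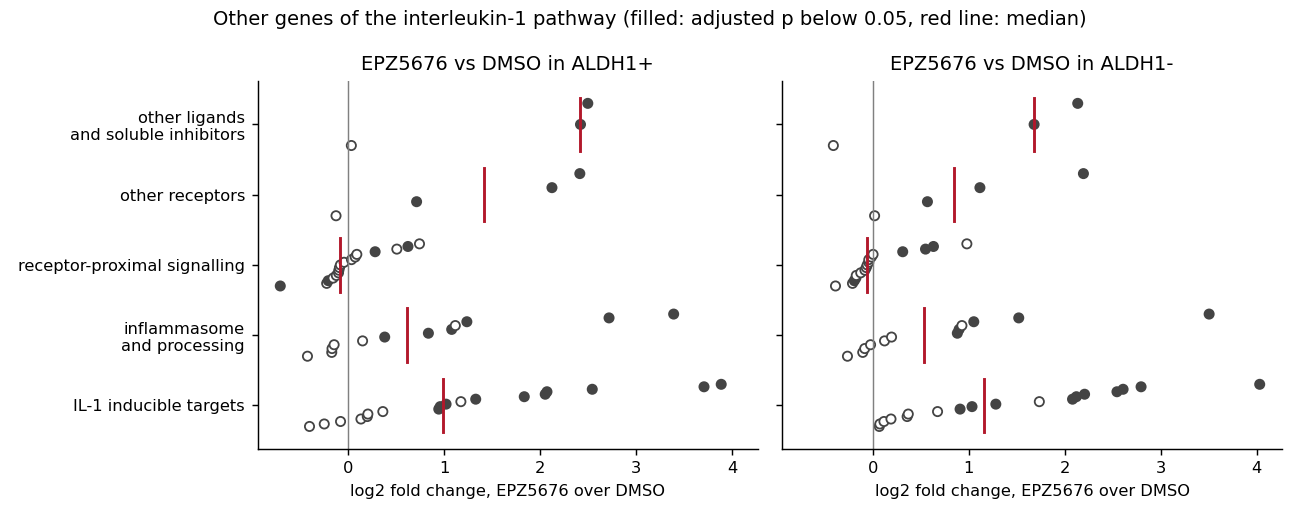
log2 fold change of EPZ5676 over DMSO for the tested genes of the 5 other pathway lists, in ALDH1+ and ALDH1- cells. Each point is a gene, filled where its adjusted p was below 0.05, and red lines are medians. Called genes of the inflammasome and IL-1 inducible lists lie right of 0, while called receptor-proximal genes lie on both sides.

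Markers of leukocytes and stroma moved with the treatment as well, at low levels. Of 15 such markers in the table, 6 were tested, and in ALDH1+ cells 5 were called higher and 1, CD14, lower, beside 31.5% of all genes called. In ALDH1- cells 4 were higher and 0 lower, beside 22.6% of all genes called. PTPRC and VWF passed the filter through EPZ5676 libraries, so they could only be called higher. The summed level of all 15 markers was 36.1 to 37.9 CPM in EPZ5676 ALDH1+ and 18.5 to 24.2 CPM in DMSO ALDH1+. It was 32.4 to 42.2 CPM in EPZ5676 ALDH1- and 20.9 to 27.0 CPM in DMSO ALDH1-. COL1A1, a fibroblast collagen, made up the largest share, at 23.2 ± 2.2 CPM in EPZ5676 ALDH1+ and 11.6 ± 2.6 CPM in DMSO ALDH1+. FCGR3A, MS4A1 and TPSAB1 were at 0 in all 12 libraries, and CD68, LYZ and CD3E had at most 3 counts in any library. The part of these markers in the rise of the interleukin-1 family genes was not tested.

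The genes whose levels ran most like those of each member were found by Pearson's r of log2 CPM over the 12 libraries, which share the treatment, so r is a description. For IL1RN they were GPR27 (r = 0.980), SMOC1 (0.978) and SPRR1A (0.978), a cornified envelope gene. For IL1R2 they were PNMA2 (0.992), HEPHL1 (0.991) and AFAP1L1 (0.989), and for IL1RL1 PLEKHN1 (0.987), ABL2 (0.982) and PSEN2 (0.981). IL1R1 ran most like IL6ST (0.961), the shared signalling receptor of IL-6 family cytokines, MAP3K4 (0.957) and DDAH1 (0.951). IL18 ran most like CGA (0.940), ODR4 (0.930) and SESN2 (0.926). The values for IL1RAP, with SFPQ (0.935), EFR3A (0.888) and RIGI (0.869), fell off fastest.

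Some counts are uncertain because of overlapping annotation, and the sources used here do not say how shared reads were counted. In GENCODE 29, IL1R1 overlaps the antisense gene IL1R1-AS1 and IL18 overlaps AP002884.3 on the opposite strand. IL1RAP overlaps AC108747.1, GCNT1P3 and RN7SKP296 on its own strand. IL36G overlaps the pseudogene HMGN2P23 on the opposite strand.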

How the data were processed

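The authors deposited 1 table of raw counts, whole numbers of reads for each gene, over 12 libraries. Its columns for the control libraries are headed Untreated, while the sample titles say DMSO treated. The titles were followed here. Trimming with Trim Galore, STAR and the build hg19 are named, without versions, per the submitters' processing notes. The kit was directional, per the labels' protocols. Which program, strand setting and annotation produced the counts is not given in the sources used here.

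Identifiers were matched, without version, to symbols, which 39501 of 57783 genes have. The analysis used edgeR 4.0.16 in R 4.3.3: filterByExpr by group, TMM factors (0.975 to 1.021), 1 quasi-likelihood model of all 12 libraries with a term per group, F tests and Benjamini-Hochberg adjustment over 16327 genes. The common biological coefficient of variation was 9.58%. SE was the log2 fold change over the root of its F. The 95% intervals were built from this SE with the normal distribution, so they are narrower than the F test implies. The fit was tested on simulated data. Total counts ranged from 24348594 to 80195050, so values under 3 counts (0.0376 to 0.122 CPM) carry little information.

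Whether replicate numbers pair libraries was checked before calls were compared. Deviations from group means over 12354 genes had correlations of 0.166 to 0.648 in all 18 same-number pairs, against -0.663 to 0.217 between different numbers. They were therefore taken as pairs, although the main fit of group means leaves this pairing out. A fit with the number as a block is given where it changes the call of a member; for the other lists its counts are given, and not every gene it adds is named.

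The members and lists were chosen with earlier results of these data known. All members were named, and from each other list up to 4 called genes with the smallest p in each comparison. The 3 most similar genes were taken among genes tested. Alternatives were RLE or no scaling, no filter, a filter of 1 CPM in 3 libraries, DESeq2 1.42.0, limma-voom (limma 3.58.1), a fit of the compared groups alone, and omission of each library or of all 4 numbered 3. Alternatives for the lists and for the receptor ratio were added after seeing the data.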

Additional observations from a re-analysis of the deposited data

How the results depend on the processing

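IL1RN and IL1R2 kept their calls in both treatment comparisons under all 21 alternatives, at 1.48 to 1.72 and 0.97 to 1.24 in ALDH1+ and 0.87 to 0.99 and 1.05 to 1.20 in ALDH1- cells (log2 fold change). IL1RL1 lost its call only without the single libraries named above; its adjusted p ranged from 2.99e-72 to 0.0511 in ALDH1+ and from 9.24e-57 to 0.110 in ALDH1- cells, the lowest with no filter. Adjusted p of IL1RN between populations given EPZ5676 ranged from 8.99e-07 to 0.784, and that of IL1RL1 in DMSO from 1.70e-08 to 0.934. In treatment, IL18 ranged from 0.0417 to 0.622 in ALDH1+ and 0.00629 to 0.349 in ALDH1- cells, and IL1R1 from 0.0342 to 0.386 and 0.0358 to 0.463. The 3 members called in ALDH1+ cells became 5 with the replicate block. The 3 in ALDH1- cells became 5 without the 4 libraries numbered 3, and ranged from 2 to 5 when 1 library was left out. Between ALDH1+ and ALDH1- cells given EPZ5676, the 0 called became 2 with no filter and 1 with DESeq2, with the replicate block and without the 4 libraries numbered 3, and ranged from 0 to 1 with 1 library left out. In DMSO it became 1 with no filter and 1 with the replicate block. The SE of IL1RL1 with no filter, 0.148 in ALDH1+ treatment, was far below its main value of 0.693. For IL1RN in ALDH1+ treatment the SE hardly changed, 0.127 with no filter and 0.130 in the main fit. Yet its adjusted p was 1.60e-33 with no filter and 5.90e-07 in the main fit (edgeR quasi-likelihood test). The p-values and calls with no filter are therefore not comparable with the others, and the cause was not tested.

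Signs turned only for values that were not called (log2 scale). Without the 4 libraries numbered 3, IL1RAP in ALDH1- treatment was 0.0875 and the interaction of IL1R1 -0.19. IL1R2 was -0.021 with limma-voom between populations in DMSO, and its interaction was -0.0037 with the replicate block. With 1 library left out, IL1RAP in ALDH1- treatment ranged from -0.23 to 0.037. Between populations given EPZ5676, IL1R2 ranged from -0.047 to 0.16 and IL1RAP from -0.20 to 0.073, and in DMSO IL1R2 ranged from -0.10 to 0.18. Interactions ranged from -0.13 to 0.11 for IL1R1, -0.15 to 0.14 for IL1R2, -0.39 to 1.30 for IL1RL1, -0.17 to 0.024 for IL18 and -0.26 to 0.011 for IL1RAP. The cause was not tested. Depth limits IL1A, IL1B, IL33 and IL36G, and all genes near 3 counts.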
